A study of Drosophila melanogaster with 9 samples.

Results

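The 7 Sox genes of Drosophila melanogaster that lie outside chromosome 4 were D (Dichaete), SoxN, Sox21a, Sox21b, Sox100B, Sox14 and Sox15. They were taken by name from the Release 6 gene table and make up 7 of the 13922 protein-coding genes on X, 2L, 2R, 3L, 3R and 4. For each gene the share of bases under an H3K27me3 peak, called the covered percent, was computed for the gene body and for a window of the body with 20 kb on each side. The larvae belonged to 3 groups, which were males of genotype roX1[ex6]roX2[9-4], in which both roX1 and roX2 are knocked out (KO males), wild-type females and wild-type males. All were larvae of the third instar, raised at 25 °C. Chromatin came from ground larval tissue fixed in 1% formaldehyde, and the labels name neither the tissues nor the number of animals behind a library. Each group had 2 immunoprecipitated libraries with a peak list each, and the 3 input samples were not analysed here. Wild-type males served as the comparison for both other groups, so both comparisons share the same 2 wild-type male libraries.

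H3K27me3 is written by the Polycomb complex PRC2 and is found over developmental regulators that are kept silent, often as wide domains that hold a gene and its flanks. Sox proteins bind DNA through an HMG box. D and SoxN act in the early nervous system, Sox21a drives differentiation of stem cell progeny in the adult gut, and Sox100B is needed in the gonad. Sox14 is an ecdysone response gene required for neuronal pruning, and Sox15 acts in the wing hinge and in the socket cells of bristles. The roX RNAs are noncoding RNAs of the male dosage compensation complex, and by its title the study asked about their part in the repression of autosomal genes.

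The lists held 6189 to 6327 peaks in KO males, 8896 to 10619 in wild-type females and 4784 to 5406 in wild-type males. On the 6 chromosome arms the peaks covered 11.4 to 13.0 Mb in KO males, 15.5 to 17.8 Mb in wild-type females and 15.1 to 15.9 Mb in wild-type males. Peaks with a −log10 q under 3 made up 85.0 to 87.0% of the lists of KO males, 90.8 to 91.1% of those of wild-type females and 77.2 to 79.7% of those of wild-type males. The lists carry no read counts, so depth is unknown, and the absence of a peak means only that the mark was not detectable at this depth. Whether replicates came from separate animals is not given, so the spread between them may be technical. On Y the peaks covered 166.1 and 166.6 kb in KO males, 25.2 and 30.4 kb in wild-type females and 301.4 and 235.6 kb in wild-type males, so both female libraries lay below every male library. A list of H3K27me3 peaks holds no test of the tissue by its expressed markers. With 2 libraries a group, a two-sided exact permutation test reaches p = 0.333 at best, so library values are given beside limma fitted across all genes.

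In wild-type males 6 of the 7 genes were marked, that is, had at least 50% of the body covered in each library, and Sox14 had no peak in its body in any library. By this rule 615 of the 13922 coding genes were marked. In KO males the bodies of SoxN, Sox15 and Sox21b stayed covered at 97.0 to 100%, D was lower by a short stretch at one end, and Sox21a lay below the 50% limit in both libraries. Covered percent does not measure the strength of the mark under a peak. The deposited fold enrichment of the peak over Sox15 was 2.12 and 2.07 in KO males against 2.95 and 3.44 in wild-type males. It was 1.99 and 2.18 against 3.18 and 3.20 for Sox21b, and 2.13 and 2.39 against 2.68 and 2.72 for SoxN. These differences were not tested, and the scale may differ between lists. In wild-type females D and Sox15 were the members whose bodies passed the test, both lower than in wild-type males. All 6 marked genes had lower window coverage in both KO libraries, and in both female libraries, than in either wild-type male library. The same held for 86.8% (KO males) and 61.6% (wild-type females) of the 615 coding genes that wild-type males had marked. In KO males this is therefore close to what a marked gene showed in general. For wild-type females 6 of 6 against 61.6% is given as a description, as the members are few. Marked genes were chosen on wild-type males, which favours lower values in the other groups. Fewer cells carrying the mark and less mark per cell cannot be told apart in chromatin from whole tissue.

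**Figure D1:**
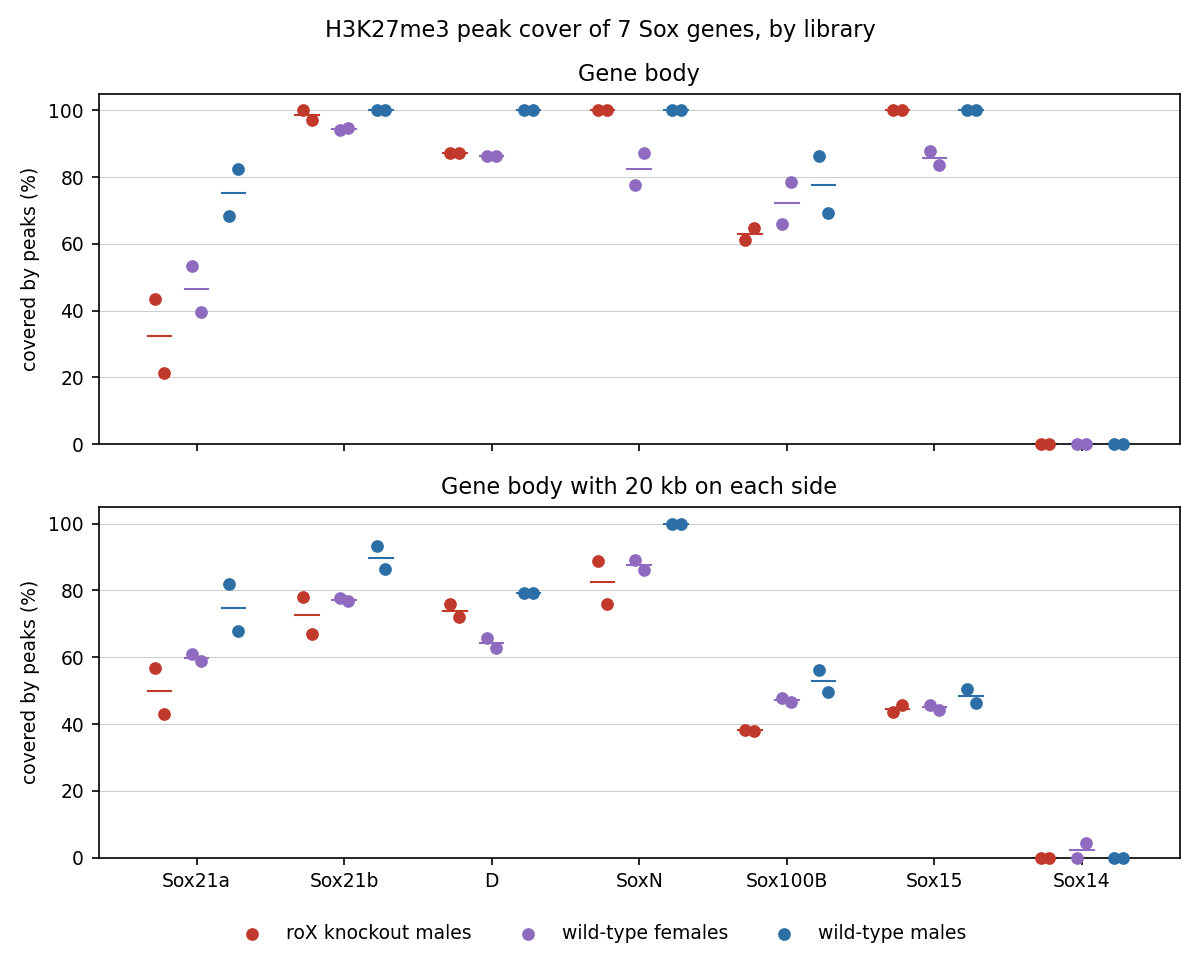
Covered percent of the gene body and of the body with 20 kb on each side for the 7 Sox genes, with 1 point per library and the groups in the order KO males, wild-type (WT) females and WT males. SoxN and Sox15 sit at 100% of the body in KO males and WT males, Sox21a lies between 21.4 and 43.5% in KO males against 68.3 and 82.3% in WT males, and Sox14 is at 0.

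The SoxB genes were D, SoxN, Sox21a and Sox21b. D (CG5893) lies at chr3L:14175610-14178620 in Release 6 (dm6) and encodes a factor of embryonic segmentation and of the nervous system. Its body was covered at 87.1 and 87.1% in KO males, 86.4 and 86.3% in wild-type females and 100 and 100% in wild-type males. The groups did not overlap in either comparison, and the SD between replicates was at most 0.0705 points.

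In KO males the body of D fell by 12.9 points relative to wild-type males (SE 0.297, limma, Benjamini-Hochberg adjusted p = 0.000691, lower in 2 of 2 libraries). In wild-type females it fell by 13.7 points (SE 0.297, limma, adjusted p = 0.000601, lower in 2 of 2 libraries). Both calls rest on the first 0.387 kb of the body, chr3L:14175610-14175996, which no KO or female peak covered and which was fully covered in wild-type males. This interval was chosen after the values were seen and is a description.

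The uncovered gap over that end of D was 1.05 and 0.893 kb long in KO males and 1.19 and 1.22 kb long in wild-type females. It ended 0.388 to 0.414 kb inside the body in all 4 libraries. The gene table gives no strand, so the gap is not placed against the transcription start. When gaps of up to 1 kb were joined, the difference in KO males was −6.46 points (limma, adjusted p = 1) and both calls ended. In wild-type females the difference stayed at −13.7 points (limma, adjusted p = 0.183). Over all alternatives the adjusted p ranged between 1.04e-06 and 1 in KO males and between 8.80e-07 and 0.183 in wild-type females, and these gap-joined values were the only ones above the threshold.

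Over the window of D, coverage was 76.0 and 72.0% in KO males, 65.9 and 62.9% in wild-type females and 79.2 and 79.2% in wild-type males. The window fell by 14.9 points in wild-type females (SE 2.17, limma, adjusted p = 0.0143) and differed by −5.26 points in KO males without passing the test (limma, adjusted p = 0.437). The female call ended without either wild-type male replicate, with a 10 kb flank and with peaks of −log10 q under 3 left out (adjusted p between 0.00944 and 0.253 over all alternatives). The window held 2 and 4 peaks in KO males, 4 and 6 in wild-type females and a single peak in each wild-type male library.

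Sox21b (CG32139, chr3L:14112405-14131324) lies 44.3 kb from D on the same arm, with no coding gene between them. Its body was covered at 100 and 97.0% in KO males, 94.2 and 94.8% in wild-type females and 100 and 100% in wild-type males. KO and wild-type males overlapped, while both female libraries lay below both wild-type male libraries. The difference was −1.51 points in KO males (limma, adjusted p = 1) and −5.51 points in wild-type females (limma, adjusted p = 0.0661), and neither passed the test. The female value passed with only the 4 libraries compared (adjusted p = 0.0172, between 0.0172 and 0.379 over all alternatives).

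The window of Sox21b was covered at 78.1 and 67.0% in KO males, 77.6 and 76.9% in wild-type females and 93.2 and 86.6% in wild-type males. Neither other group overlapped wild-type males. The differences of −17.3 points in KO males (limma, adjusted p = 0.152) and −12.6 points in wild-type females (limma, adjusted p = 0.0709) did not pass the test. The female difference passed with the replicate number as a block (adjusted p = 0.0481) and with a 10 or 40 kb flank (between 0.0292 and 0.470 over all alternatives). With lists of equal total length the differences were −7.98 points in KO males and −5.17 points in wild-type females.

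In each wild-type male library 1 peak, of 77.7 and 77.8 kb, ran over Sox21b, D and nan, the gene of a TRPV channel of sensory neurons. The part common to both libraries, chr3L:14112022-14189692, was chosen on wild-type males and is given as a description. It was covered at 95.4 ± 3.90% in KO males by 2 and 6 peaks, and at 87.3 ± 0.0428% in wild-type females by 8 and 9 peaks (SD, n = 2 each). The domain was therefore kept over most of its length in every library and was cut into more peaks outside wild-type males. The interval between Sox21b and D was covered at 94.3 ± 5.91% in KO males, 82.3 ± 1.72% in wild-type females and 100 ± 0% in wild-type males (SD, n = 2 each), and KO replicate 1 had it under 1 peak against 5 peaks in KO replicate 2.

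The outer ends of this domain lay close together in the 6 libraries. Its end beyond nan lay between positions 14189346 and 14189712, a range of 366 bases, and 1.16 to 1.52 kb before nuf, a gene of membrane recycling. The body of nuf was uncovered in both KO libraries, covered at 0.654 and 2.41% in wild-type females and uncovered in both wild-type male libraries. The end at Sox21b varied over 1033 bases and lay inside the Sox21b body in KO replicate 2.

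Sox21a (CG7345, chr3L:14103481-14108118) lies 4.29 kb from Sox21b and outside the wide domain, and their windows overlap, so the window values of these 2 genes share bases. Its body was covered at 43.5 and 21.4% in KO males, 53.2 and 39.7% in wild-type females and 68.3 and 82.3% in wild-type males. Both KO libraries lay under the 50% limit and so did 1 of the 2 female libraries, and neither group overlapped wild-type males. The spread between replicates was wide, and the differences of −42.9 points in KO males (SE 11.3, limma, adjusted p = 0.367) and −28.8 points in wild-type females (SE 11.3, limma, adjusted p = 0.239) did not pass the test.

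The peaks over Sox21a ranked lower in their lists than those over the other marked members. The strongest peak in its body had a −log10 q above 74.9 and 76.7% of the peaks of the KO lists, 65.3 and 91.4% of the female lists and 89.6 and 88.7% of the wild-type male lists. With peaks of −log10 q under 3 left out, the Sox21a body was covered at 0 and 0% in KO males, 0 and 27.4% in wild-type females and 68.3 and 82.3% in wild-type males. Under that limit the KO difference passed the test (limma, adjusted p = 0.0287, between 0.0287 and 1 over all alternatives). Weak peaks made up a larger share of the KO and female lists than of the wild-type male lists, as given above, and their part in this result was not tested.

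The window of Sox21a was covered at 56.9 and 43.1% in KO males, 60.9 and 58.8% in wild-type females and 81.9 and 67.8% in wild-type males, with differences of −24.9 points in KO males (limma, adjusted p = 0.173) and −15.0 points in wild-type females (limma, adjusted p = 0.121). With lists of equal total length these window differences were −8.04 points in KO males and −0.586 points in wild-type females, and without wild-type male replicate 1 the female one was −7.97 points. Between Sox21a and Sox21b the mark was sparse in all groups, at 12.9 ± 5.84% in KO males, 22.7 ± 8.86% in wild-type females and 41.9 ± 12.6% in wild-type males (SD, n = 2 each). The nearest marked gene on the far side, Fbp1, an ecdysone-induced gene of the larval fat body, was covered at 68.6 and 0% in KO males, 30.1 and 45.5% in wild-type females and 100 and 100% in wild-type males. Fbp1 thus lost the mark in wild-type females by the 50% rule and was split between the KO replicates. CG8100, at the edge of the window, was uncovered in KO males, covered at 0 and 20.7% in wild-type females and at 57.8 and 9.65% in wild-type males, which shows how far the replicates of a group could differ at weakly marked genes.

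**Figure D2:**
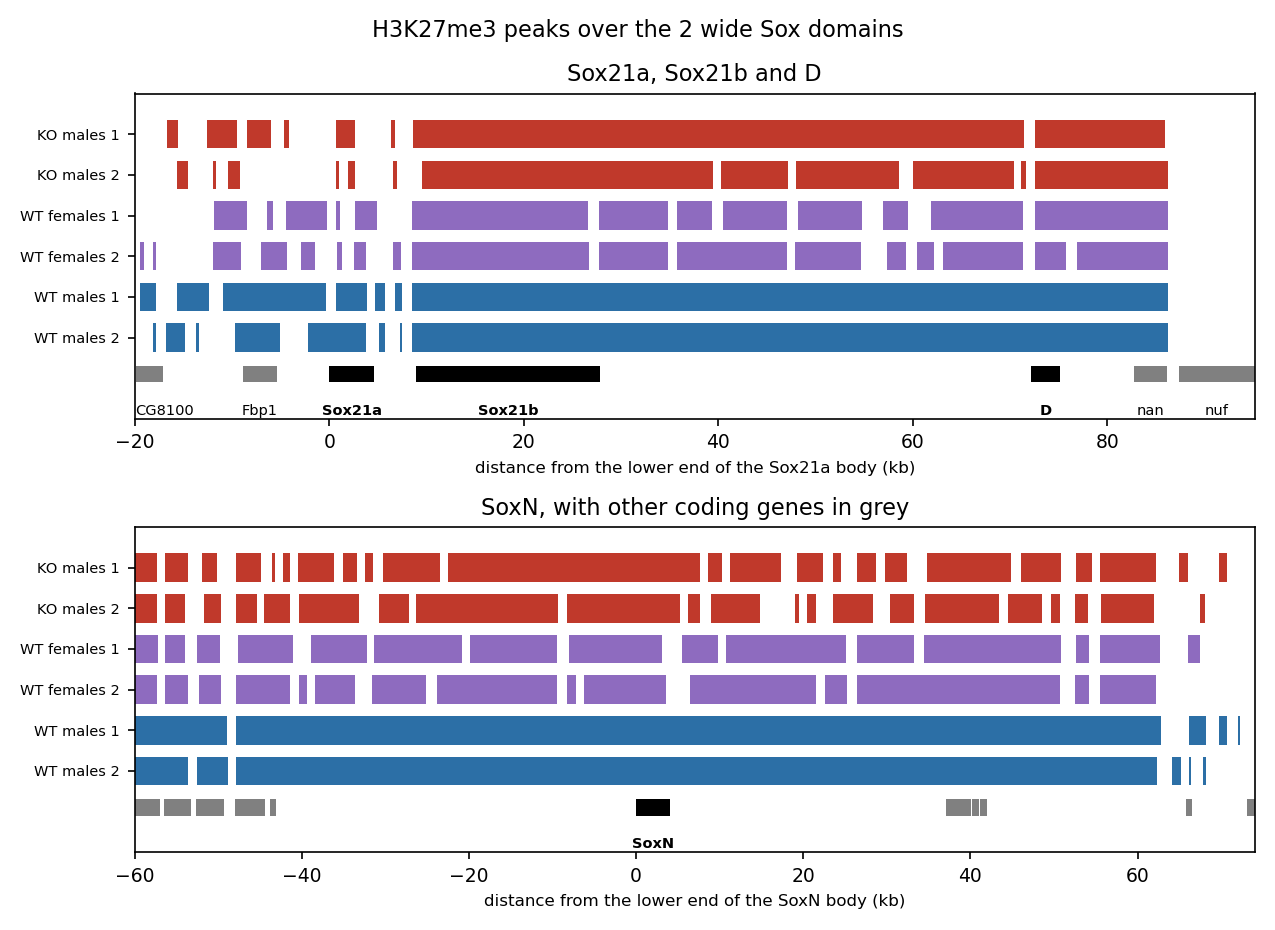
H3K27me3 peaks (bars) in each library along the Sox21a to D locus and the SoxN locus, with distance from the lower end of Sox21a or SoxN in kb on the x axis and genes in the bottom row (Sox genes black). KO is the roX knockout and WT is wild type. A single WT male peak covers Sox21b and D, and another covers SoxN, where KO males and WT females have several peaks with gaps between them.

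SoxN (CG18024, chr2L:8825645-8829670) encodes the factor that acts with D in forming the neuroectoderm. Its body was covered at 100 and 100% in KO males, 77.5 and 87.2% in wild-type females and 100 and 100% in wild-type males. KO and wild-type males had the same value, and both female libraries lay below them, with a difference of −17.6 points that did not pass the test (SE 3.42, limma, adjusted p = 0.0635). It passed on an arcsine square root scale and without either female replicate (adjusted p between 1.33e-08 and 0.302 over all alternatives).

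The window of SoxN was covered at 88.8 and 76.0% in KO males, 89.0 and 86.1% in wild-type females and 100 and 100% in wild-type males. It was the member window with the highest coverage in every group, and every KO and female library lay below wild-type males. The difference was −17.6 points in KO males (SE 4.23, limma, adjusted p = 0.144) and −12.4 points in wild-type females (SE 4.23, limma, adjusted p = 0.0716). The KO difference passed on an arcsine square root scale, with a 40 kb flank and without KO replicate 1, and with that replicate left out the fit assumes that the lone KO library varies like the other groups (adjusted p between 0.00645 and 0.598 over all alternatives). The female difference passed on that scale, with only the 4 libraries compared and with a 10 or 40 kb flank (adjusted p between 0.00684 and 0.418 over all alternatives).

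A peak of 110.6 and 110.2 kb held SoxN in wild-type males, and 7 coding genes lay whole inside the part common to both, chr2L:8777755-8887974. Over that stretch, chosen on wild-type males, coverage was 78.7 ± 1.71% in KO males in 18 and 17 peaks, and 86.1 ± 0.761% in wild-type females in 11 and 12 peaks (SD, n = 2 each). The SoxN body itself lay under a peak of 30.1 and 13.6 kb in KO males and of 11.2 and 9.79 kb in wild-type females. No coding gene touched the 20 kb flanks, and the nearest 2, CG32986 and CG32987, at 33.1 and 34.1 kb, were covered at 100% in all 6 libraries. With peaks of −log10 q under 3 left out, the window of SoxN was covered at 62.7 and 30.9% in KO males, 89.0 and 82.8% in wild-type females and 100 and 100% in wild-type males, so the KO replicates drew apart while the wild-type male lists gave the same value.

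Sox100B (CG15552, chr3R:31065253-31083407), the SoxE gene of the gonad, had its body covered at 61.0 and 64.7% in KO males, 65.8 and 78.6% in wild-type females and 86.3 and 69.1% in wild-type males. KO males lay below wild-type males without overlap, and wild-type females overlapped them. The differences were −14.8 points in KO males (SE 7.74, limma, adjusted p = 1) and −5.48 points in wild-type females (SE 7.74, limma, adjusted p = 0.612). The female difference turned positive under 4 alternatives for the body, so no direction is drawn from it. The KO difference was −6.29 points without wild-type male replicate 1, −23.4 points without wild-type male replicate 2 and −1.54 points with lists of equal total length.

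Most of the Sox100B coverage came from 1 peak of similar width in every library, 12.0 and 12.1 kb in KO males, 12.5 and 13.5 kb in wild-type females and 12.5 and 12.5 kb in wild-type males. By −log10 q this peak stood above 96.2 and 94.0% of the KO lists, 98.3 and 98.9% of the female lists and 99.1 and 99.5% of the wild-type male lists. It was the strongest peak of any member in both wild-type male lists.

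The window of Sox100B was covered at 38.1 and 38.1% in KO males, 47.9 and 46.5% in wild-type females and 56.2 and 49.5% in wild-type males. The difference was −14.8 points in KO males (SE 2.92, limma, adjusted p = 0.0903), which passed when peaks of −log10 q under 3 were left out (limma, adjusted p = 0.0237, between 0.0237 and 0.480 over all alternatives), and −5.69 points in wild-type females (limma, adjusted p = 0.175). The female difference also passed with those peaks left out, at −16.1 points (limma, adjusted p = 0.0413, between 0.0413 and 0.779 over all alternatives), and it reversed to 6.37 points with a 40 kb flank. With lists of equal total length the KO difference was −7.51 points.

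Around Sox100B, CG15553 was uncovered in KO males, covered at 30.4 and 0% in wild-type females and at 60.1 and 36.2% in wild-type males. CG11317 was covered at 29.0 and 28.6% in KO males, 44.2 and 36.7% in wild-type females and 46.7 and 50.5% in wild-type males. For both genes KO males lay below wild-type males without overlap, and neither passed the test. Alp4, an alkaline phosphatase gene, was uncovered in KO males, covered at 28.9 and 50.4% in wild-type females and at 9.77 and 0% in wild-type males, the reverse order for females.

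Sox15 (CG8404, chr2R:14201390-14212413), the SoxF gene, had its body covered at 100 and 100% in KO males, 87.6 and 83.5% in wild-type females and 100 and 100% in wild-type males. KO and wild-type males had the same value, and both female libraries were lower. In wild-type females the body fell by 14.4 points (SE 1.46, limma, adjusted p = 0.0389). That call ended with only the 4 libraries compared (adjusted p = 0.103), with the replicate number as a block (adjusted p = 0.151) and without either wild-type male replicate (adjusted p = 0.222 and 0.186, limma in each). Over all alternatives its adjusted p ranged between 1.04e-08 and 0.222.

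Within the Sox15 body the female gap common to both libraries was 1.36 kb long, chr2R:14208768-14210129. The window was covered at 43.5 and 45.6% in KO males, 45.8 and 44.2% in wild-type females and 50.4 and 46.4% in wild-type males. Groups were close and no difference passed the test, at −3.82 points in KO males (limma, adjusted p = 0.801) and −3.39 points in wild-type females (limma, adjusted p = 0.295).

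The ends of the Sox15 domain lay close together in the libraries. Its lower end lay between positions 14189148 and 14189228, a range of 80 bases over the 6 libraries, inside Sdb. Its upper end lay 0.172 to 0.216 kb before RpS23, a ribosomal protein gene, in 5 libraries, and inside RpS23, at position 14215697, in female replicate 2. Of the genes it shared this domain with, Sdb was covered at 48.6 and 56.7% in KO males, 67.3 and 58.8% in wild-type females and 69.6 and 58.8% in wild-type males. VGAT, the vesicular GABA transporter gene, was covered at 78.2 and 79.1% in KO males, 79.3 and 78.9% in wild-type females and 100 and 81.0% in wild-type males, and neither gene passed the test.

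Sox14 (CG3090, chr2R:23978801-23985177), the SoxC gene, had no peak in its body in any of the 6 libraries. Its window held 3 peaks in female replicate 2 alone, covering 4.30%, and none in the other 5 libraries. All 3 were weak, with −log10 q of 1.44, 2.59 and 1.28, and lay 10.8 to 22.0 kb above the lower end of the gene. Of the 15 coding genes in the window 13 had no peak in any library, among them its nearest neighbours Phm, a peptide-processing enzyme gene, and CG30178. The gene entered the window test only through that library, with a difference of 2.15 points in wild-type females (limma, adjusted p = 0.263) that passed when it was the lone female library.

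**Figure D3:**
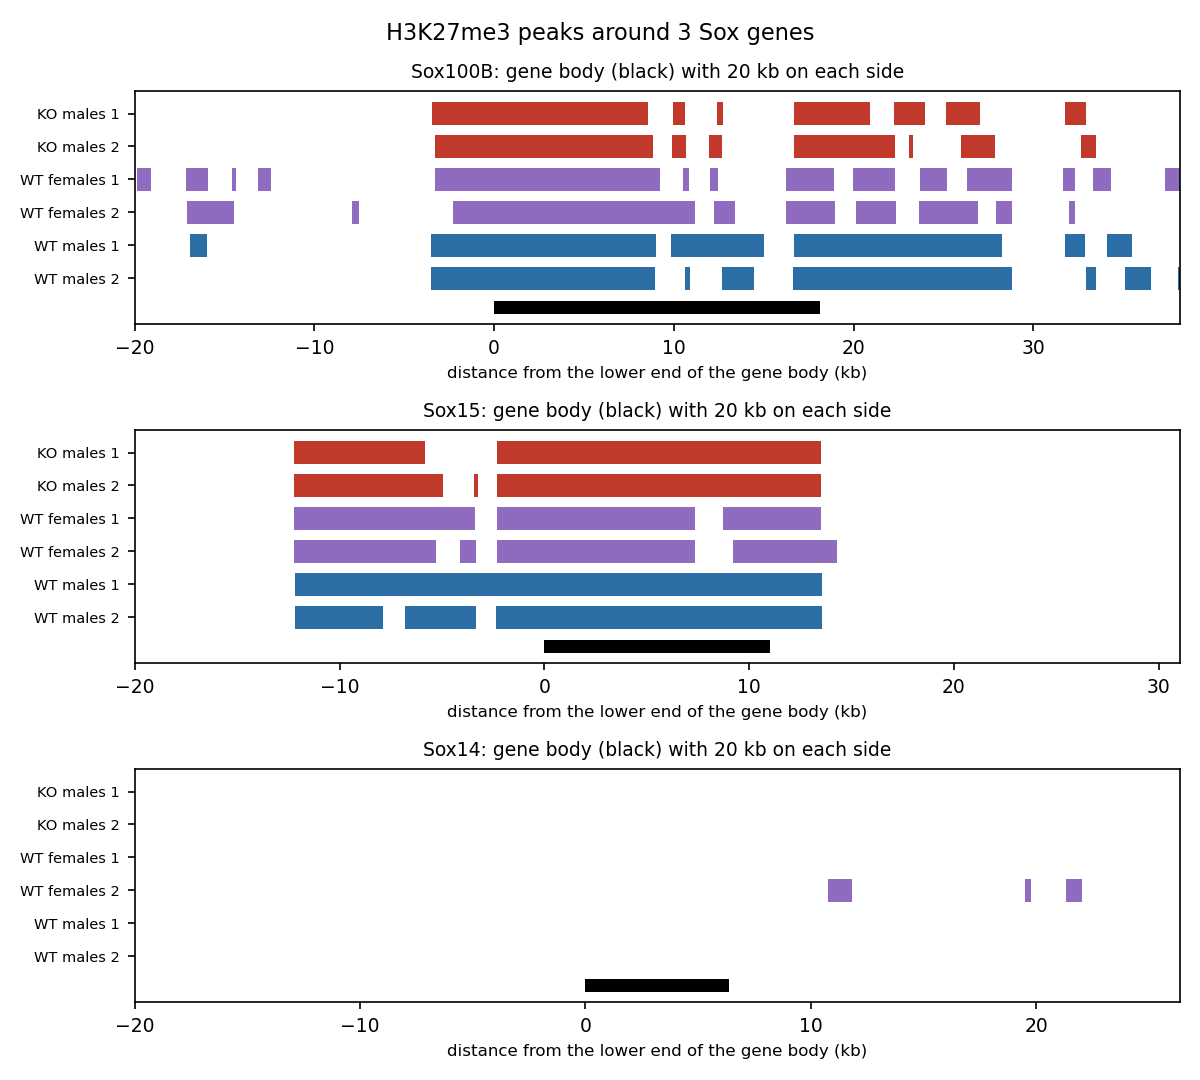
H3K27me3 peaks (bars) in each library around Sox100B, Sox15 and Sox14, with distance from the lower end of the gene body in kb on the x axis and the body in black. KO is the roX knockout and WT is wild type. The lower end of the Sox15 domain lines up in the 6 libraries, while its upper end lies further out in female replicate 2. The central Sox100B peak is present in all 6, and Sox14 has peaks in 1 female library only.

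Counted over the members, 1 of 6 tested bodies was lower in KO males (D) against 1.16% of the 4990 gene bodies tested, and 0 of 6 was higher against 0.0601%. All 6 tested members were marked in wild-type males, while the 4990 bodies include genes without coverage there, which could not be lower. The share called among the 615 marked genes is not given for this test, so the count is not read as an enrichment. In the windows 0 of 7 members was lower against 2.22% of 12609 windows, and 0 of 7 higher against 0.0634%. With 0 windows called by limma, 4 of the 7 had an unadjusted p under 0.05 and were lower (Sox100B, SoxN, Sox21b and Sox21a), against 11.0% of all windows and 64.7% of those of the 615 marked genes. The windows of Sox21a and Sox21b share bases, so these 4 are not separate. Sox14 did not enter the body test, as it had no covered base. The bodies of D, SoxN, Sox21b and Sox15 were covered at 100% in both wild-type male libraries, as was the SoxN window. These values could not be higher in another group, so the counts of 0 higher say nothing about them.

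Against genes that were marked to begin with, the KO counts were near the background. The 6 marked members and the 615 marked genes were both chosen by coverage in wild-type males, which are also the reference. That choice favours lower values in the other group, for members and background alike. KO males lay below wild-type males without overlap for 3 of the 6 marked bodies, against 56.7% of the 615 coding genes that wild-type males had marked in both libraries, and for 6 of 6 windows, against 86.8%. Sox21a alone lost the mark, 1 of 6 against 26.3% of the 615, and Sox14, the gene that could have gained it, did not (0.0764% of genes did). At limits of 20% or 80% of the body Sox21a was not counted as lost. The median difference of the 6 marked members in KO males was −7.21 points for bodies, against −20.3 points over the 615 marked genes. For windows it was −16.1 points, against −11.6 points. The 615 genes mix X with autosomes, while all members lie on autosomes. Shares and medians for autosomes alone are not given here.

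In wild-type females 2 of 6 bodies were lower (D and Sox15) against 1.72% of bodies, and 0 of 6 higher against 5.81%. In the windows 1 of 7 was lower (D) against 3.38%, and 0 of 7 higher against 31.7%. As for KO males, these shares are over all genes tested, some of them without coverage in wild-type males. Shares called among the 615 marked genes are not given, so the counts are not read as an enrichment. The bodies and the window that were fully covered in wild-type males, named above, could not be higher here either. Female coverage lay below wild-type males without overlap for 5 of the 6 marked bodies, against 43.9% of the 615 marked genes, and for 6 of 6 windows, against 61.6%. No member lost the mark (10.4% of the 615 did) and Sox14 did not gain it (1.09% of genes did). The choice on wild-type males and the mix of X with autosomes apply to these shares of the 615 and to the medians below as well.

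The median difference of the 6 marked members in wild-type females was −14.1 points for bodies, against −6.86 points over the 615 marked genes, and −12.5 points for windows, against −5.43 points. The members are few, and Sox21a, Sox21b and D lie at 1 locus, so the medians are descriptions.

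**Figure D4:**
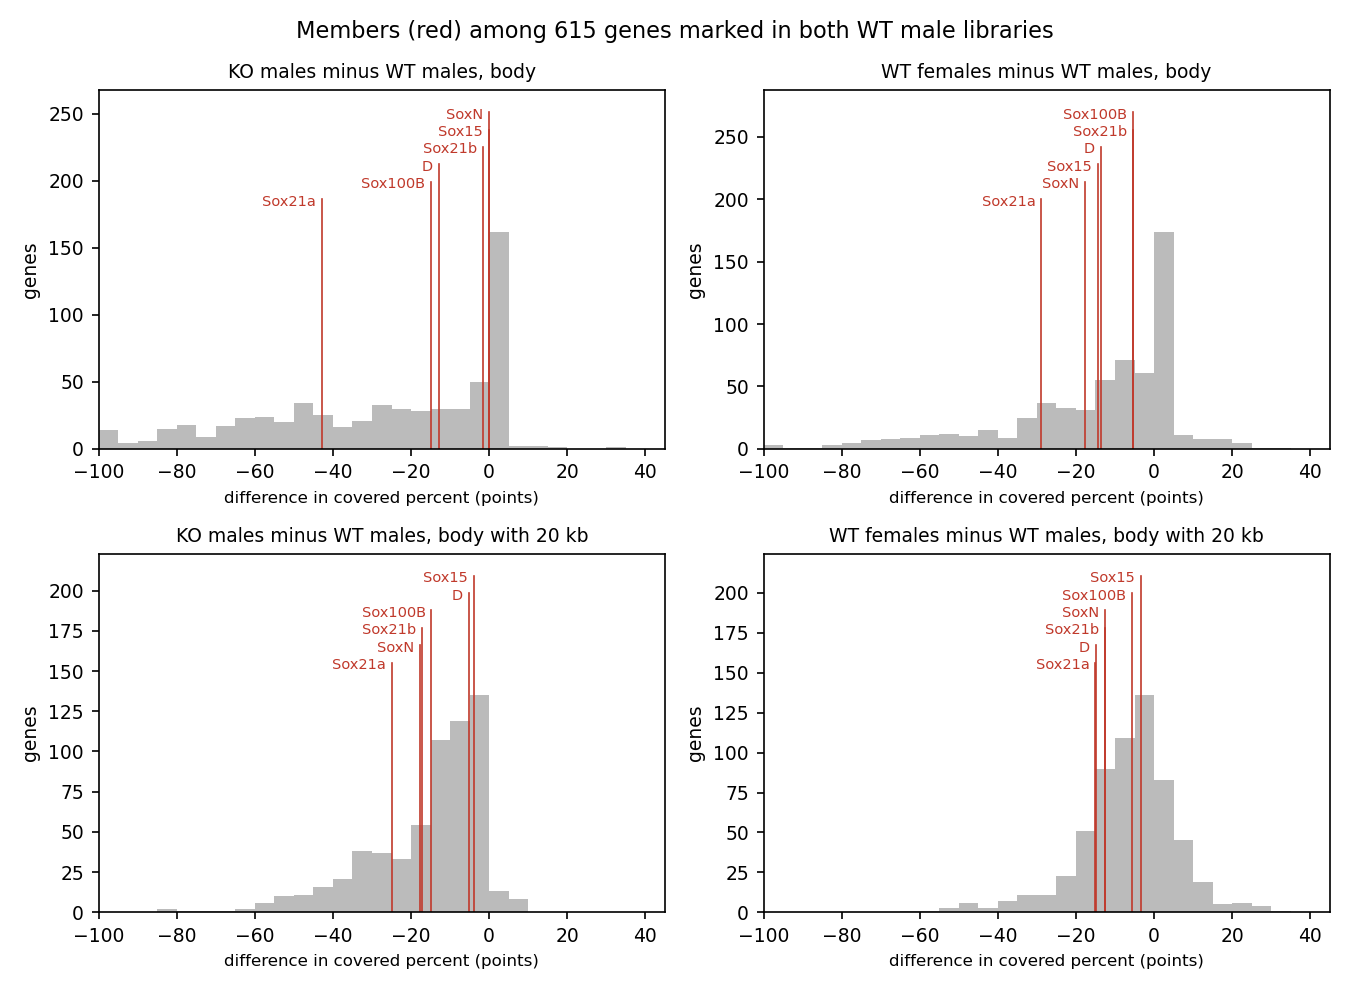
Differences in covered percent, in points, of the 6 marked Sox genes (red lines) among the 615 coding genes marked in WT males (grey histogram), for KO males minus WT males on the left and WT females minus WT males on the right, with bodies above and windows below. KO is the roX knockout and WT is wild type. SoxN and Sox15 lie at 0 for the body in KO males, Sox21a has the most negative member body in both panels, and all 6 windows lie below 0 in both.

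Runs of at least 1 kb that both wild-type male lists covered, with no peak in either library of another group, showed where the windows thinned. Against KO males there were 2 in the SoxN window, of 1.71 and 1.12 kb, beginning 17.3 and 22.4 kb above the lower end of the gene. Around Sox21a there were 3, of 1.01, 1.84 and 1.15 kb, and the last lay inside its body at chr3L:14106147-14107299. Sox100B had 2, of 1.71 and 1.16 kb, the longer inside its body at chr3R:31078011-31079722, Sox15 had 1 of 1.51 kb, and D had none.

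Against wild-type females D had 2 such runs, of 2.16 and 1.19 kb, and the second, chr3L:14174831-14176020, was the gap over its lower end. SoxN had 2, of 1.20 and 2.01 kb, and the second ran over the upper end of its body at chr2L:8829157-8831162. Sox21a had 2, of 1.48 and 1.16 kb, Sox100B had 3, of 1.01 to 1.27 kb, and Sox15 had the 1 gap in its body. No run of 1 kb or more was covered in KO males or in wild-type females (both libraries) and uncovered in wild-type males, for any of the 7 windows. In the SoxN window, fully covered in both wild-type male libraries, no such run could occur.

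Sox102F (CG11153), the Sox gene on chromosome 4, is given beside the other Sox genes. Its body was covered at 75.6 and 54.1% in KO males, 25.0 and 25.1% in wild-type females and 90.1 and 91.9% in wild-type males. It fell by 65.9 points in wild-type females (SE 8.11, limma, adjusted p = 0.0392) and lost the mark there, and differed by −26.1 points in KO males without passing the test (limma, adjusted p = 0.524). Whether its female difference exceeds those of the other Sox genes was not tested.

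Among 12 other HMG box genes, Sox102F included, 9 had no peak in any library, among them cic, Dsp1, HmgD, HmgZ and Ssrp. Of the 3 tested, none was called in KO males and Sox102F alone was called in wild-type females, with medians of −2.25 points in KO males and −2.91 points in wild-type females against 0 and 7.49 points over all bodies tested. In wild-type males 6 of the 7 Sox genes were marked, against 1 of the 12 genes of this list. That gene was Sox102F, itself a Sox gene.

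Of 24 genes known to act with or downstream of the Sox genes, 23 were found in the gene table and 18 had a covered base. In KO males 1 of 18 was lower and none higher, against 1.16% and 0.0601% of all bodies tested. The lower gene was upd3, the cytokine gene of gut regeneration, which lies on X. It was uncovered in both KO libraries, covered at 84.4 and 85.7% in wild-type females and at 68.5 and 78.4% in wild-type males (limma, adjusted p = 0.0222 for KO males). The only other list gene on X with a covered base, vnd, was covered at 1.87 and 0% in KO males against 39.8 and 40.6% in wild-type males. Whether the upd3 difference goes with its place on X was not tested. By the 50% rule upd3, pros (a neural fate gene) and grh (an epidermal and neural factor gene) lost the mark in KO males, 3 of 14 that could, against 26.3% of the 615 marked genes. Coverage of pros was 43.4 and 40.4% in KO males against 56.6 and 54.5% in wild-type males. For grh it was 27.7 and 16.9% against 52.4 and 56.4%. Both genes lay just above the limit in wild-type males, and neither passed the test (limma, adjusted p = 0.835 for pros and 0.352 for grh). The median over the list was −1.71 points, against 0 over all bodies tested and −20.3 points over the 615 marked genes. Of the 18 genes, 14 were marked in both wild-type male libraries, so the shares of all bodies called are no close background for this list, here or in wild-type females.

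In wild-type females 4 of the 18 were lower and none higher, against 1.72% and 5.81% of all bodies tested. The list median was −6.47 points, against 7.49 points over all bodies tested and −6.86 points over the 615 marked genes. It therefore lay near the median of marked genes. The lower genes were sim, the midline regulator with which D acts, Dr, a columnar neural gene, nub and sv. Of these, nub is a POU gene and sv a Pax gene of the bristle lineage. Coverage of sim was 98.2 and 96.7% in KO males, 84.9 and 85.5% in wild-type females and 98.3 and 98.4% in wild-type males (limma, adjusted p = 0.00666 for females). For nub it was 97.6 and 97.5% in KO males, 89.5 and 88.4% in wild-type females and 100 and 100% in wild-type males (limma, adjusted p = 0.00407 for females).

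Dr was covered at 100 and 100% in KO males, 93.1 and 91.8% in wild-type females and 100 and 100% in wild-type males (limma, adjusted p = 0.0186 for females). The sv body was covered at 61.6 and 51.0% in KO males, 18.4 and 17.1% in wild-type females and 87.1 and 80.6% in wild-type males (limma, adjusted p = 0.0360 for females). Like Sox102F, sv lies on chromosome 4. By the 50% rule sv and grh lost the mark in wild-type females, 2 of 14 against 10.4% of the 615 marked genes, and vnd, a columnar neural gene on X, gained it at 58.0 and 71.7% in wild-type females against 39.8 and 40.6% in wild-type males. Coverage of grh was 29.9 and 31.1% in wild-type females against 52.4 and 56.4% in wild-type males. Neither grh nor vnd passed the test in wild-type females (limma, adjusted p = 0.190 and 0.198).

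The genes whose window coverage was most like that of a member over the 6 libraries were found by the mean absolute difference, among genes at least 100 kb from every member. For D they were bap, an NK homeobox gene, at 1.79 points, and Cyp313a2 at 2.38 points. For SoxN they were hui at 1.30 and CG33704 at 2.17 points, for Sox21a mthl8 at 2.61 and SdhAL at 4.01 points, and for Sox21b CG42741 at 2.86 points and the Hox gene Dfd at 3.44 points. Sox100B was closest to Kots at 2.30 and Osi21 at 2.36 points, and Sox15 to ArfGAP1 at 1.53 and Pomp at 1.99 points. The closest windows to Sox14, those of Pex23 and CG5715, also had coverage in female replicate 2 alone, at 4.30 and 4.29%.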

How the data were processed

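H3K27me3 peak lists of 6 libraries, 2 in each of 3 groups assigned from the sample titles, were used. Build dm6 and the tools deepTools 3.5.1, Picard, SAMtools 1.13, Bowtie2 2.4.5 and Trimmomatic 0.39 appear in the submitters' processing notes. No peak caller or role of the inputs is named there or in the labels. Lists were deposited per library, so replicates were not pooled. For each peak the authors deposited a display score, a fold enrichment (a ratio), a −log10 p and a −log10 q. These authors' values served to rank and filter peaks within each list. The limits on −log10 q and fold were the same for all lists, and the filtered coverage was compared between groups. The scale of −log10 q may differ between lists. The central Sox100B peak had 29.0 and 30.0 in wild-type males, 6.53 and 7.64 in wild-type females and 6.09 and 4.38 in KO males. The lowest deposited −log10 q was 1.00.

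Overlapping peaks were merged and the covered percent computed for every coding gene of the Release 6 table, which has dm6 coordinates and no strand. Depth is unknown, so no counting interval was given. limma 3.58.1 (R 4.3.3), with a mean-variance trend and group as the only term, was fitted to the covered percent of all genes with a covered base in at least 1 library, over all 6 libraries and apart for bodies and windows, with Benjamini-Hochberg adjustment over all of them and calls at an adjusted p under 0.05. It left 3 residual degrees of freedom. The fit was tested on simulated data with normal noise of 1 fixed spread and a large planted drop in well-covered genes. The replicate spread seen here was not used in it, so it does not vouch for the calls on single genes. Lost or gained means that both libraries of wild-type males and neither of the other group had at least 50% of the body covered, or the opposite.

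Named were the 7 members; window neighbours with at least 50% of the body covered in a library (or the nearest 2 where there were fewer); the 2 genes most alike; runs of at least 1 kb; Sox102F; and called genes of 2 lists, 12 HMG box genes and 24 partner or target genes. A few unmarked genes (RpS23, cic, Dsp1, HmgD, HmgZ, Ssrp) are also named, chosen after their values were seen. The members and lists were chosen with earlier results of these data known. Alternatives were gaps of up to 1 kb joined, a minimum −log10 q of 3, a minimum fold of 1.5, lists of equal total length, only the 4 libraries compared, a replicate block, an arcsine square root scale, no filter, flanks of 10 or 40 kb, marks at 20% or 80%, and each replicate left out.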

Additional observations from a re-analysis of the deposited data

How the results depend on the processing

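Of the values of single members under the alternatives, 303 kept their direction and side of the threshold, 18 passed only under the alternative, 10 no longer passed and 5 reversed; the causes were not tested except where stated. The 5 reversed values were all Sox100B in wild-type females, at 4.22 points (−log10 q of at least 3), 9.65 (equal total length), 0.906 (without female replicate 1) and 3.08 (without wild-type male replicate 1) for the body, and 6.37 for the window with a 40 kb flank; with a replicate left out the body ranged between −14.0 and 3.08 points.

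In KO males the members called by body were 2 with −log10 q of at least 3 and 0 with gaps of up to 1 kb joined, which closes the shorter of the KO gaps over D; those called by window were 1 with −log10 q of at least 3, 1 on the arcsine square root scale, 1 with a 40 kb flank, and 0 to 1 with a replicate left out. Over all genes 61 bodies differed, against 181 with −log10 q of at least 3, 33 with only the 4 libraries compared and 11 to 208 with a replicate left out; 172 genes lost or gained the mark, against 104 with lists of equal length and 261 to 298 with a replicate left out, a rule that then needs fewer libraries.

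In wild-type females the members called by body were 1 with gaps joined, 3 (D, Sox15 and SoxN) on the arcsine square root scale and 1 to 3 with a replicate left out; those called by window were 2 with only the 4 libraries compared, 2 on the arcsine square root scale, 2 with a 10 kb flank, 3 with a 40 kb flank, and 0 to 2 with a replicate left out. Over all genes 376 bodies differed, against 167 with −log10 q of at least 3, 120 with equal length, 99 with only the 4 libraries compared, 831 on the arcsine square root scale, 43 without the filter and 9 to 2375 with a replicate left out; 206 genes lost or gained the mark, against 122 with −log10 q of at least 3, 113 with equal length, 493 and 137 with marks at 20% and 80%, and 280 to 680 with a replicate left out. A lone library left in a group was assumed to vary like the other groups. Counts of members called by window under the alternatives, in KO males and in wild-type females, lack the share of all windows called alike. They are therefore not set against a background.

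Replicate numbers did not pair the libraries: deviations of same-numbered libraries from their group means correlated at 0.0197 (KO males and wild-type females), −0.0347 (KO males and wild-type males) and −0.00658 (wild-type females and wild-type males) over 4990 genes. With the replicate block, bodies that differed numbered 14 in KO males and 18 in wild-type females, and members called numbered 1 by body (D) and 2 by window (D and Sox21b) in wild-type females. Peak lists without counts leave the effect of depth on weak peaks unmeasured.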
